A study of Mus musculus with 6 samples.

Results

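The genes described here are the 4 fibroblast growth factor (FGF) receptor genes Fgfr1, Fgfr2, Fgfr3 and Fgfr4, and 6 genes whose transcription follows FGF signalling through the kinase ERK: Spry1, Spry2, Spry4, Dusp6, Etv4 and Etv5. They were found by gene symbol, and all 10 were among the 24975 genes of the count table. RNA was sequenced from mesoderm of mouse embryos at embryonic day 7.5 (E7.5), sorted by fluorescence at 1000 cells per library, in 3 Gli3R and 3 control libraries. Gli3R embryos were Mesp1-Cre/+;R26-Gli3R-IRES-Venus/+ and expressed Gli3R, a repressor form of a Hedgehog transcription factor, together with the Venus reporter. Control embryos were Mesp1-Cre/+;R26-tdTomato/+ and expressed the tdTomato reporter alone. Both groups carried 1 copy of Mesp1-Cre, which acts in cells that have expressed Mesp1, a gene of newly formed mesoderm. Each library pooled littermates, and each of 3 litters gave 1 Gli3R and 1 control library, so a replicate number marks a litter. Per the notes in the deposited table, Gli3R cells were sorted by Venus and control cells by tdTomato, so what Gli3R does and what the other reporter or its gate does cannot be told apart.

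FGF ligands bind receptor tyrosine kinases on the cell surface together with heparan sulfate, and the receptors pass the signal through Ras, Raf and MEK to ERK. ERK induces the ETS-family transcription factors Etv4 and Etv5, and it also induces its own brakes. The Sprouty proteins dampen signalling between the receptor and Raf, and the phosphatase Dusp6 removes phosphate from ERK in the cytoplasm. In the gastrulating mouse embryo, Fgf8, Fgf4 and Fgfr1 are known to be needed for mesoderm cells to leave the primitive streak and take on their fates.

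Library totals ran from 6592417 to 12635151 counts in the Gli3R group and from 5481190 to 10435790 in the control group, and 11913 genes were expressed enough to be tested. Control replicate 1, the shallowest library, stood apart at 39.8 on principal component 1, which held 35.0% of the variance, and the other libraries lay between -19.2 and 2.25. All 16 mesoderm markers looked for, such as Mesp1, Hand1 and Twist1, passed the expression filter. Gli3, part of which the transgene carries, stood at 39.0 to 50.9 CPM (reads of the gene relative to the library's total, with TMM scaling) in the Gli3R libraries and at 25.8 to 34.4 CPM in the control libraries. In bulk RNA, fewer cells of a type and less RNA per cell cannot be told apart.

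Across the 10 genes, 0 were called higher or lower in Gli3R. Of these genes, 9 passed the expression filter and were tested, and Fgfr4 did not (edgeR quasi-likelihood test, p adjusted by Benjamini-Hochberg over all genes tested, threshold 0.05). The same test called 16 of all tested genes, or 0.134% (0.0252% higher and 0.109% lower). Without adjustment, 3 of the 9 had a p under 0.05, namely Fgfr3 and Spry2 on the higher side and Spry1 on the lower side, against 6.85% of all tested genes. DESeq2's Wald test likewise called 0 of the 9, with the same 3 under an unadjusted 0.05. The median log2 fold change (Gli3R over control) was -0.05 over the 9 genes and -0.01 over all tested genes, with 4 of the 9 above 0 and 5 below. Exons of Fgfr1, Fgfr3 and Spry1 overlap a gene on the opposite strand in GENCODE M21 and those of Fgfr2 overlap Ctbp2, so some of the reads counted for them may belong to these neighbours.

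**Figure D1:**
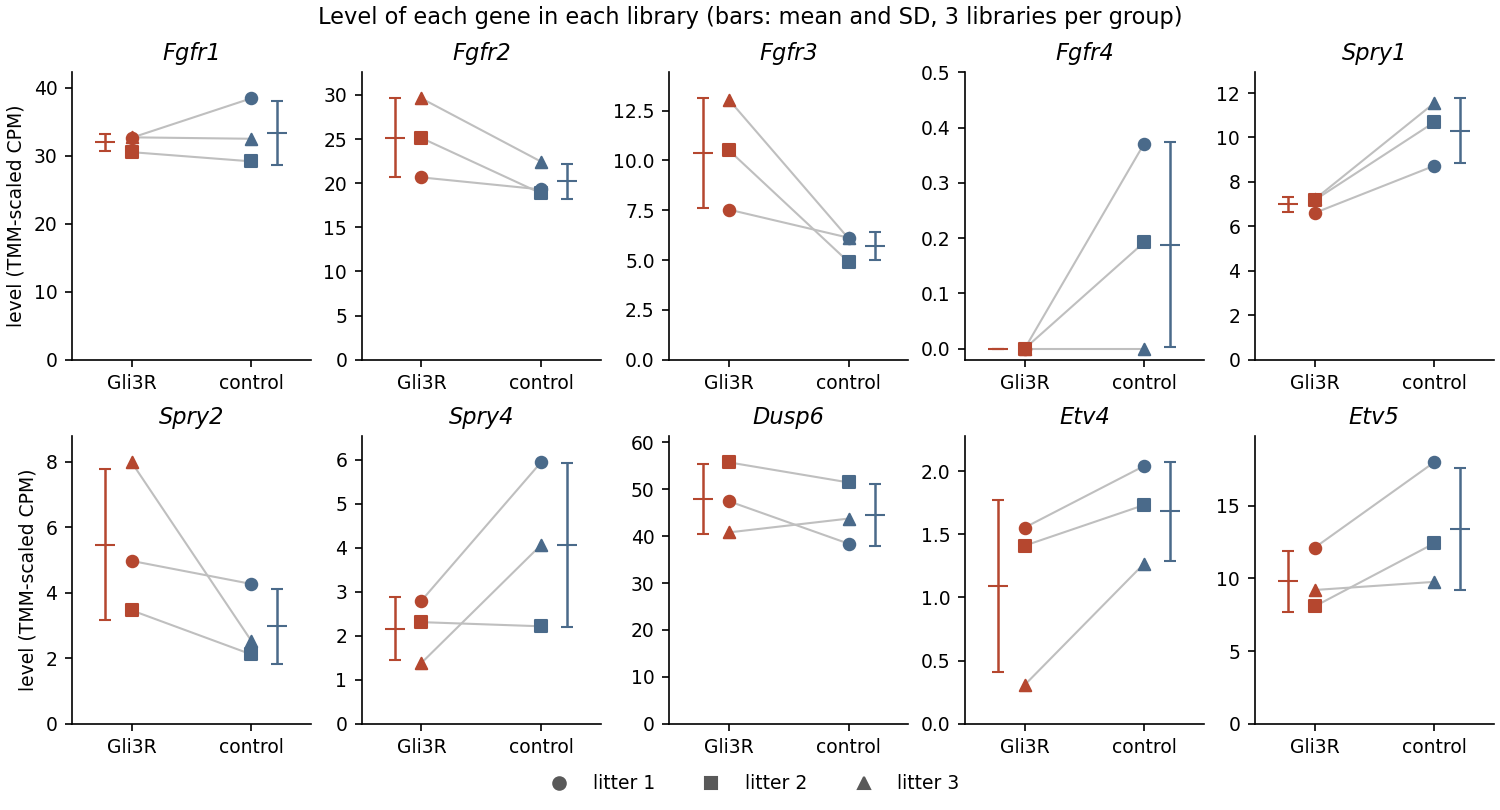
Level of each of the 10 genes (vertical axis, TMM-scaled CPM) in the Gli3R libraries (left) and the control libraries (right), with symbols for litters, grey lines joining the libraries of a litter and bars for the mean and SD of 3 libraries. The groups do not overlap for Fgfr3, higher in each Gli3R library, and for Spry1, lower in each Gli3R library.

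The receptor genes were led by Fgfr1 and Fgfr2. Fgfr1 (Entrez gene 14182, chromosome 8), the receptor that gastrulating mesoderm depends on, had 32.6, 30.5 and 32.7 CPM in Gli3R replicates 1, 2 and 3, against 38.4, 29.2 and 32.5 CPM in control replicates 1, 2 and 3. Control replicate 1 was the highest library and control replicate 2 the lowest, with the Gli3R libraries between them. The log2 fold change was -0.05 ± 0.13 (SE; edgeR quasi-likelihood, Benjamini-Hochberg adjusted p = 0.996), with a 95% interval of 0.785 to 1.18 for the fold of Gli3R over control, and 0.057 without control replicate 1.

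Fgfr2 (14183, chromosome 7) encodes a receptor whose epithelial and mesenchymal splice forms bind different ligands, and counts per gene do not separate them. Its level was 20.7, 25.1 and 29.6 CPM in Gli3R replicates 1, 2 and 3, against 19.3, 18.9 and 22.4 CPM in control replicates 1, 2 and 3. The Gli3R library was the higher one in each litter, by 0.10, 0.41 and 0.40 on the log2 scale in litters 1, 2 and 3, but the groups overlapped. The fitted log2 fold change of 0.30 ± 0.16 (SE) missed the threshold (edgeR quasi-likelihood, Benjamini-Hochberg adjusted p = 0.825), its 95% interval ran from 0.962-fold to 1.59-fold, and it came to 0.18 without Gli3R replicate 3.

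Fgfr3 (14184, chromosome 5) encodes a receptor best known as a brake on cartilage growth in the skeleton. It had 7.53, 10.5 and 13.0 CPM in Gli3R replicates 1, 2 and 3, against 6.12, 4.91 and 6.09 CPM in control replicates 1, 2 and 3. Each Gli3R library lay above each control library, as did those of 5.62% of all tested genes. The difference was small in litter 1 (0.29 on the log2 scale) and larger in litters 2 and 3 (1.06 and 1.07). The fitted log2 fold change was 0.85 ± 0.25 (SE), a 1.23-fold to 2.65-fold difference at 95% confidence, and it was not called (edgeR quasi-likelihood, Benjamini-Hochberg adjusted p = 0.405). Among all tested genes, Fgfr3 stood at rank 192 by p.

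Fgfr4 (14186, chromosome 13) encodes the receptor for which endoderm and its derivatives, liver included, are known. It was near the limit of detection, with 0 reads in all 3 Gli3R libraries, against 2, 2 and 0 reads in control replicates 1, 2 and 3. A count of 0 over the Gli3R group allows a level of up to 0.110 CPM, while the 4 control reads stand for 0.169 CPM over the control group. A difference in Fgfr4 was not detectable at this depth. These limits cover counting error only.

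Set on a scale per length, CPM per kilobase of coding-transcript exons, the receptors summed to 12.0, 13.1 and 15.0 in Gli3R replicates 1, 2 and 3, against 12.6, 10.4 and 12.0 in control replicates 1, 2 and 3. The groups overlapped in this sum (exact two-sided permutation test over 6 libraries, p = 0.2). Fgfr1 made up 46.1% ± 5.37 of the sum in Gli3R libraries and 54.5% ± 3.31 in control libraries (SD, n = 3 each), and Fgfr2 made up 36.5% ± 2.56 in Gli3R libraries and 33.9% ± 3.57 in control libraries. The share of Fgfr3 was 14.3%, 18.2% and 19.7% in Gli3R replicates 1, 2 and 3, against 11.0%, 10.7% and 11.5% in control replicates 1, 2 and 3. Each Gli3R library thus gave a larger part of its receptor transcripts to Fgfr3, by 6.32 percentage points on average. The exact two-sided permutation p values were 0.1 for Fgfr3, 0.2 for Fgfr1 and 0.4 for Fgfr2 and Fgfr4 each. With 3 libraries a group, 0.1 is the smallest p this test can give, and adjusted over the 4 receptors by Benjamini-Hochberg each p was 0.4.

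**Figure D2:**
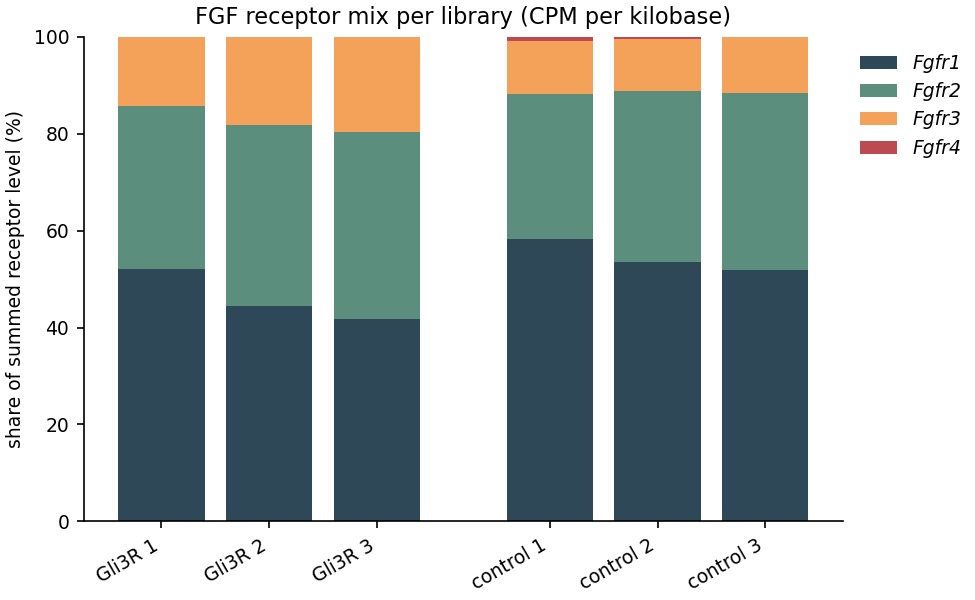
Share of each receptor gene (vertical axis, percent of the summed level in CPM per kilobase of exon) in each Gli3R library (left) and each control library (right). Fgfr3 takes 14.3% to 19.7% in the Gli3R libraries and 10.7% to 11.5% in the control libraries, and Fgfr4 is at 0 in the Gli3R libraries.

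Among the feedback genes, the promoters of Dusp6, Spry1 and Spry2 are shown, since Dusp6 was the most abundant readout and the values of Spry1 and Spry2 lay on opposite sides of 0. They run from 250 bases before to 50 after the RefSeq start, on GRCm38.p6, a later build than the mm9 of the counts. Capitals mark CGGAA, the ETS-family core with a leading C, or TTCCG, its reverse complement.
Dusp6, chr10:99262981-99263280, plus strand: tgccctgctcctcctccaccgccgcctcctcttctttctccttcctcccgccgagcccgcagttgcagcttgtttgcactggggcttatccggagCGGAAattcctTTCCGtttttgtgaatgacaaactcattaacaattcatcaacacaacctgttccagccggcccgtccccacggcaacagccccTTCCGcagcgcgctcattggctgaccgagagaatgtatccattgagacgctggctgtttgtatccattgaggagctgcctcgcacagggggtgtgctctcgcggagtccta
Spry1, chr3:37639697-37639996, plus strand: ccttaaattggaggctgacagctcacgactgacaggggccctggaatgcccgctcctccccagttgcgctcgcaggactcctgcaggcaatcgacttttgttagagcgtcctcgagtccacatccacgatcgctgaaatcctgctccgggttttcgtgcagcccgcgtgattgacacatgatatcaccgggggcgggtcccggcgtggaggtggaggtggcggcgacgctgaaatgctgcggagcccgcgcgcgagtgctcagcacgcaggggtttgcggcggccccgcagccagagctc
Spry2, chr14:105896770-105897069, minus strand: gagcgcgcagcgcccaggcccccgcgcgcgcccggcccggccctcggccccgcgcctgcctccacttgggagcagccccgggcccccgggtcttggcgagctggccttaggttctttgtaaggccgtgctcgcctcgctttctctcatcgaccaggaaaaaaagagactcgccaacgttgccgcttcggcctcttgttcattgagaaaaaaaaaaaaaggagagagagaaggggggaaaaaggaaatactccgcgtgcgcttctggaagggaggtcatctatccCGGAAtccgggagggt

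Dusp6 held 3 such matches, starting at bases 96, 107 and 190 of the window, Spry2 held 1 at base 285 and Spry1 held 0. Of the 9 promoter windows at hand, 3 held a match, the remaining one being that of Fgfr4. This short core, added after longer motifs had been searched, is common, with a match in 29.9% of 32851 RefSeq promoters of the same length, both strands counted. The longer ETS motif CCGGAAGT was in 3.89% of all promoters and the Gli motif GACCACCCA in 0.253%. Neither was in any of the 9 windows, which belong to Fgfr2, Fgfr3, Fgfr4, Spry1, Spry2, Dusp6 and Etv5. CGGAA lies within CCGGAAGT, so the searches overlap. Fgfr1, Spry4 and Etv4 were not in the promoter table.

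The 3 Sprouty genes did not lie on one side of 0. Spry1 (24063, chromosome 3), an inhibitor of receptor signalling known for its part in kidney development, had 6.60, 7.18 and 7.21 CPM in Gli3R replicates 1, 2 and 3, against 8.72, 10.7 and 11.5 CPM in control replicates 1, 2 and 3. Each Gli3R library lay below each control library, as did those of 6.33% of all tested genes, and the Gli3R libraries were close to one another. The litters gave -0.39, -0.56 and -0.66 on the log2 scale. The fitted log2 fold change was -0.57 ± 0.19 (SE; 95% interval 0.503-fold to 0.90-fold), short of the threshold (edgeR quasi-likelihood, Benjamini-Hochberg adjusted p = 0.498).

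Spry2 (24064, chromosome 14), the family member known in mice for its part in the inner ear and the gut, lay on the other side. It had 4.97, 3.46 and 7.98 CPM in Gli3R replicates 1, 2 and 3, against 4.27, 2.12 and 2.54 CPM in control replicates 1, 2 and 3. The Gli3R library was the higher one in all 3 litters, but Gli3R replicate 2 lay below control replicate 1. The log2 fold change was 0.91 ± 0.38 (SE; edgeR quasi-likelihood, Benjamini-Hochberg adjusted p = 0.701) and rested in part on Gli3R replicate 3, without which it was 0.58.

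Spry4 (24066), a Sprouty gene expressed near sources of FGF in the embryo, was read from 36, 18 and 9 counts in Gli3R replicates 1, 2 and 3 and from 32, 23 and 32 counts in control replicates 1, 2 and 3. Its level was 2.80, 2.31 and 1.38 CPM in Gli3R replicates 1, 2 and 3, against 5.94, 2.21 and 4.06 CPM in control replicates 1, 2 and 3. Litters 1 and 3 had less in Gli3R, at -1.02 and -1.40 on the log2 scale, and litter 2 had nearly the same level in both (0.05). At -0.81 ± 0.41 (SE), the log2 fold change missed the threshold (edgeR quasi-likelihood, Benjamini-Hochberg adjusted p = 0.800) and came to -0.46 without control replicate 1.

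Per kilobase, the 3 Sprouty genes summed to 5.24, 4.61 and 6.59 CPM per kilobase in Gli3R replicates 1, 2 and 3, against 6.29, 5.15 and 6.04 in control replicates 1, 2 and 3, so the total overlapped between groups. The ratio of Spry1 to Spry2, chosen after the values were seen and therefore not tested, was 0.954, 1.49 and 0.649 in Gli3R replicates 1, 2 and 3. In control replicates 1, 2 and 3 it was 1.47, 3.62 and 3.27. The ratio was smaller in the Gli3R library of each litter, which follows from Spry1 being lower and Spry2 higher in each. Gli3R replicate 2 and control replicate 1 were nearly level in this ratio.

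Dusp6 (67603, chromosome 10), whose promoter window held 3 CGGAA cores, is the ERK phosphatase and a widely used transcript readout of FGF and ERK activity in the mouse embryo. It was the most abundant of the 10 genes. Its level was 47.4, 55.7 and 40.8 CPM in Gli3R replicates 1, 2 and 3, against 38.4, 51.5 and 43.8 CPM in control replicates 1, 2 and 3. The groups overlapped, and the 3 litters went 0.30, 0.11 and -0.10 on the log2 scale. The fitted log2 fold change was 0.10 ± 0.15 (SE; edgeR quasi-likelihood, Benjamini-Hochberg adjusted p = 0.996). Its 95% interval ran from 0.852-fold to 1.35-fold, and without Gli3R replicate 2 the value was -0.015.

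Etv5 (104156, chromosome 16) and Etv4 (18612, chromosome 11) encode transcription factors of the PEA3 group that ERK signalling induces, and in each litter both had the lower value in the Gli3R library. Etv5 had 12.1, 8.07 and 9.21 CPM in Gli3R replicates 1, 2 and 3, against 18.0, 12.4 and 9.77 CPM in control replicates 1, 2 and 3. The groups overlapped, with control replicate 1 well above all other libraries, and litter 3 showed almost no difference (-0.08 on the log2 scale, against -0.56 and -0.60 in litters 1 and 2). The fitted log2 fold change of -0.42 ± 0.25 (SE; edgeR quasi-likelihood, Benjamini-Hochberg adjusted p = 0.900) came to -0.16 without control replicate 1.

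Etv4 was sparse, with 20, 11 and 2 reads in Gli3R replicates 1, 2 and 3, against 11, 18 and 10 reads in control replicates 1, 2 and 3. These stood for 1.55, 1.41 and 0.307 CPM in the Gli3R libraries, against 2.04, 1.73 and 1.27 CPM in the control libraries of the same litters. Gli3R replicate 3 was the low library, and the groups overlapped. The log2 fold change was -0.50 ± 0.49 (SE; edgeR quasi-likelihood, Benjamini-Hochberg adjusted p = 0.968) and ran from -0.88 without Gli3R replicate 1 to -0.15 without Gli3R replicate 3. The 95% interval of 0.329-fold to 1.51-fold was wide at this depth.

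**Figure D3:**
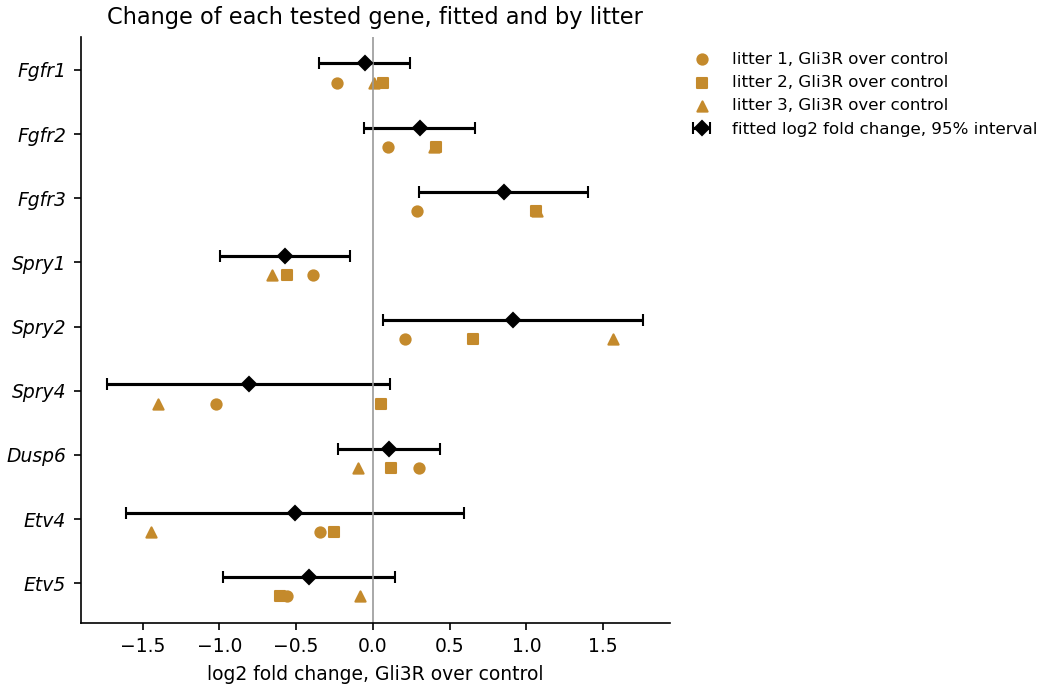
Log2 fold change of Gli3R over control (horizontal axis) for the 9 tested genes, as fitted with its 95% interval (black) and as the ratio within each litter (coloured symbols). The fitted values run from -0.81 for Spry4 to 0.91 for Spry2, and the intervals of Fgfr3, Spry1 and Spry2 do not reach 0, before adjustment for the number of genes tested.

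Within litters, Fgfr2, Fgfr3 and Spry2 were higher and Spry1, Etv4 and Etv5 lower in all 3, 3 of 9 on each side, against 15.0% of all tested genes higher and 15.3% lower in every litter (30.3% in either direction). With litter as a block, the fit called 27 genes of all tested, or 0.227%, and again 0 of the 9; the adjusted p values were lowest for Fgfr3 (0.268) and Spry1 (0.378; edgeR quasi-likelihood, adjusted as before). Under the block 5 of the 9 had an unadjusted p below 0.05 (Fgfr2, Fgfr3, Spry1, Spry2 and Etv5), against 8.73% of all tested genes. The genes were chosen with earlier results of these data known, so these shares were not tested against each other.

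Ordered by level per kilobase of exon in the Gli3R libraries, Dusp6 (17.2 CPM per kilobase) came before Fgfr1 (6.12) and Fgfr2 (4.91), and the ranges of these 3 did not overlap. Spry2, Etv5, Spry1 and Fgfr3 followed between 2.62 and 2.36 CPM per kilobase and could not be ranked among themselves, since the ranges of neighbours overlapped. Spry4 and Etv4 lay at 0.45 CPM per kilobase each, and Fgfr4 at 0. In the control libraries the order was Dusp6 (15.9 CPM per kilobase), Fgfr1 (6.39), Fgfr2 (3.95), Spry1 (3.55), Etv5 (3.32), Spry2 (1.42), Fgfr3 (1.30), Spry4 (0.856), Etv4 (0.70) and Fgfr4 (0.0565). There the neighbours from Fgfr2 to Etv5 and those from Spry2 to Etv4 overlapped in range, while Etv5 lay above Spry2 in all 3 control libraries.

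Summed over Spry1, Spry2, Spry4, Dusp6, Etv4 and Etv5, the readouts stood at 25.9, 27.1 and 23.6 CPM per kilobase in Gli3R replicates 1, 2 and 3, against 25.3, 27.4 and 24.6 in control replicates 1, 2 and 3. The groups overlapped, and within each litter the 2 libraries differed little. Dusp6 makes up most of that sum. Without it, the other 5 gave 8.89, 7.20 and 9.01 CPM per kilobase in the Gli3R libraries, against 11.6, 8.96 and 8.99 in the control libraries of the same litters, and the groups still overlapped. Of 17 genes on the FGF ligand list, 6 were tested, 4 with a log2 fold change below 0 and 2 above. Those 4 had an unadjusted p under 0.05 (edgeR quasi-likelihood test), against 6.85% of all tested genes in either direction. Each of the 4 was lower in each Gli3R library than in each control library, against 6.33% of all tested genes. The 17 together had 83.1, 98.9 and 70.7 CPM in Gli3R replicates 1, 2 and 3, against 219.9, 161.0 and 198.5 CPM in control replicates 1, 2 and 3. Without Fgf3 and Fgf15, left out after the values were seen, the sum came to 28.2 ± 3.59 CPM in Gli3R libraries and 33.3 ± 0.586 CPM in control libraries (SD, n = 3 each). This remaining sum did not overlap either, at 24.1 to 30.6 CPM in Gli3R and 32.9 to 34.0 CPM in control libraries. Fgf13, on the list although its product is not a secreted ligand, is part of both sums. It averaged 9.47 CPM in Gli3R and 6.58 CPM in control libraries, with a log2 fold change of 0.50 ± 0.23 (SE). Fgf3 and Fgf15 fell (log2 fold change -1.98 ± 0.19 and -1.37 ± 0.17, SE; edgeR quasi-likelihood, Benjamini-Hochberg adjusted p = 0.00450 and 0.0234). With single libraries left out, the call of Fgf3 was lost without Gli3R replicate 3 (edgeR, Benjamini-Hochberg adjusted p = 0.0638). That of Fgf15 was lost without Gli3R replicate 1, Gli3R replicate 3 or control replicate 3 (edgeR, Benjamini-Hochberg adjusted p = 0.0890, 0.0978 and 0.0626).

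**Figure D4:**
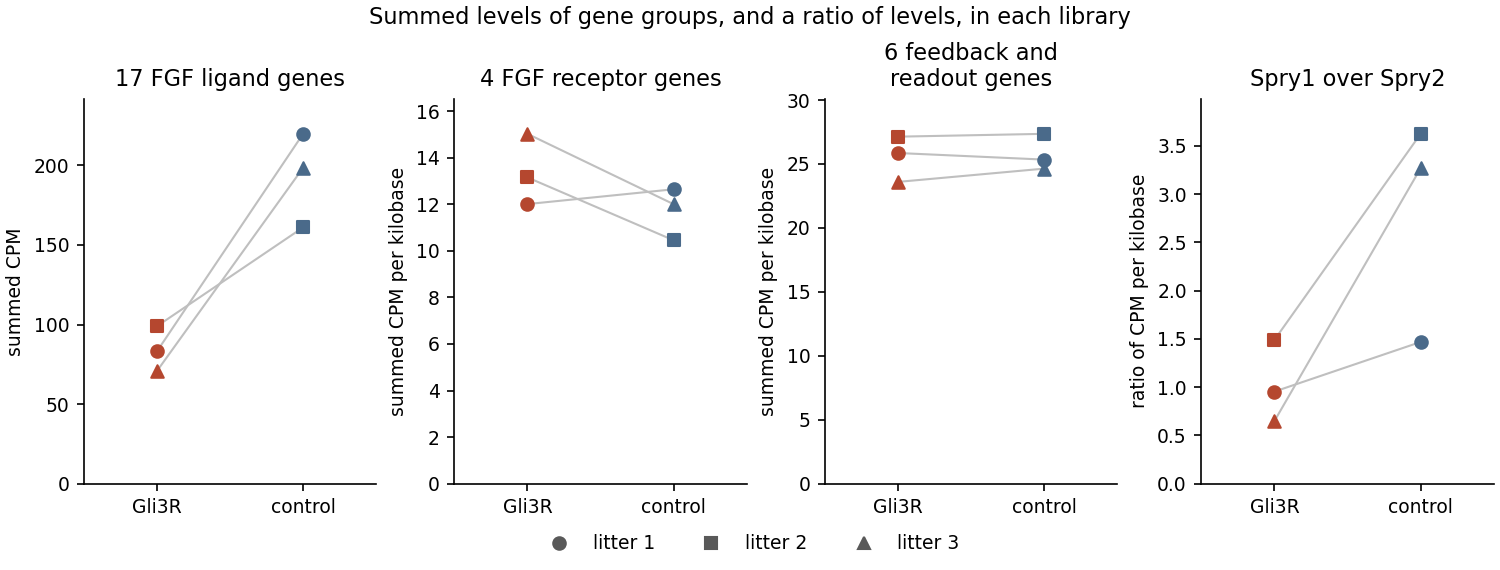
Summed level of the 17 genes on the FGF ligand list, Fgf13 included (CPM), of the 4 FGF receptor genes and of the 6 feedback and readout genes (CPM per kilobase of exon). The last panel shows the ratio of Spry1 to Spry2, chosen after the values were seen. Gli3R libraries are on the left in each panel and control libraries on the right, with lines joining the libraries of a litter. The ligand sum is 70.7 to 98.9 in Gli3R and 161.0 to 219.9 in control libraries, while the sum of the readouts is 23.6 to 27.1 in Gli3R and 24.6 to 27.4 in control libraries.

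Markers of other cell types had unequal sums in the groups. At an unadjusted p under 0.05, 424 of all 11913 tested genes were higher and 392 lower (edgeR quasi-likelihood test), or 6.85% in either direction. Of 12 epiblast and neural ectoderm markers, the summed level was 46.1 to 53.1 CPM in Gli3R and 57.6 to 150.7 CPM in control libraries. The highest value was in control replicate 1. Among the genes described here, this library was also highest for Fgfr1, Fgfr4 (2 reads), Spry4, Etv4 and Etv5, and lowest for Dusp6 (38.4 CPM). None of the 12 was at 0 in either group as a whole, although Sox2, Sox3, Pou3f1 and Six3 had at most 7 reads in any library. Of 7 tested, 0 were called over all genes and 5 had an unadjusted p under 0.05, all lower (edgeR quasi-likelihood test). With the litter block Cdh1, the E-cadherin gene, fell (Benjamini-Hochberg adjusted p = 0.0327 in edgeR). The 10 primitive streak markers summed to 25.5 to 54.7 CPM in Gli3R and 43.9 to 134.0 CPM in control libraries, and again control replicate 1 was highest. The groups overlapped in this sum. Of 7 streak markers tested, 0 were called without the block and T and Cdx1 fell with it (edgeR quasi-likelihood, Benjamini-Hochberg adjusted p = 0.0373 and 0.0327). Without the block, 1 had an unadjusted p under 0.05 (lower). By log2 fold change 5 lay below 0 and 2 above, namely Wnt3 (0.40) and Lhx1 (0.07). Wnt3a, not tested, had 0 reads in the Gli3R libraries, against 11, 14 and 4 reads in control replicates 1, 2 and 3. Nodal had 1 read in Gli3R replicate 2 and 0 elsewhere. Of 8 extraembryonic ectoderm markers in the table, the sum was 11.3 to 16.9 CPM in Gli3R and 17.1 to 29.5 CPM in control libraries. Of these, 3 were tested (Cdx2, Plet1 and Ascl2) and 0 were called (edgeR quasi-likelihood test), with all 3 lower at an unadjusted p under 0.05. Cdx2, which is also on the list of other ERK target genes below, averaged 8.06 CPM in Gli3R and 12.0 CPM in control libraries. Elf5, which defines extraembryonic ectoderm, was at 0 in all 6 libraries. The part of these cells in the levels of the genes described here was not tested.

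The 12 genes listed as markers of extraembryonic mesoderm and allantois summed to 1003 to 1256 CPM in Gli3R and 732 to 965 CPM in control libraries. Bmp4, Peg3, H19, Hand1 and Igf2 were the most abundant of them, with group means of 124 to 203 CPM each. Hand1 is also among the mesoderm markers, and the imprinted genes Igf2, H19 and Peg3 are not confined to this tissue. The sum therefore does not measure extraembryonic mesoderm alone. Of 11 tested, Ahnak rose (log2 fold change 1.00, edgeR quasi-likelihood, Benjamini-Hochberg adjusted p = 0.0172), and Bmp4 rose too with the litter block (Benjamini-Hochberg adjusted p = 0.0424 in edgeR). The Ahnak call was lost without Gli3R replicate 2, Gli3R replicate 3 or control replicate 2 (edgeR, Benjamini-Hochberg adjusted p = 0.118, 0.0826 and 0.154). Of the 11, 6 had an unadjusted p under 0.05, all higher, against 6.85% of all tested genes in either direction. By log2 fold change 9 lay above 0 and 2 below, namely Tbx4 (-0.38) and Tbx3 (-0.14). Hoxa13, not tested, had at most 3 reads in any library. The 11 endothelial markers summed to 204.9 to 225.5 CPM in Gli3R and 125.2 to 170.9 CPM in control libraries, with none of 8 tested called (edgeR quasi-likelihood test). Of these 8, 3 had an unadjusted p under 0.05, all higher, against the same 6.85%. The most abundant, Etv2, averaged 96.2 CPM in Gli3R and 62.2 CPM in control libraries, and Pecam1 had the smallest log2 fold change (0.05). Cdh5, Tie1 and Emcn, not tested, averaged 0.718, 0.300 and 0.181 CPM in Gli3R, against 0.959, 0.475 and 0.329 CPM in control libraries. No marker of either list was at 0 in a whole group. The part of cells with these markers in the levels of the genes described here was not tested.

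In the rest of the pathway, given from lists, no gene outside the ligands passed. Of 24 receptor partners and heparan sulfate co-receptors, 18 were tested and 0 were called (edgeR quasi-likelihood test), with a median log2 fold change of -0.03 against -0.01 over all tested genes. Without adjustment 2 of them had a p under 0.05, both lower, against 6.85% of all tested genes in either direction. The glypican gene Gpc3, by far the most abundant of them, had 323.2, 345.5 and 279.9 CPM in Gli3R replicates 1, 2 and 3, against 395.9, 541.2 and 495.8 CPM in control replicates 1, 2 and 3, so the groups did not overlap. Its log2 fold change was -0.60 ± 0.12 (SE; edgeR quasi-likelihood, Benjamini-Hochberg adjusted p = 0.175). In this list the groups did not overlap for 1 gene on the higher side and 3 on the lower side. The same held for 5.62% and 6.33% of all tested genes. The syndecan gene Sdc1, which encodes another heparan sulfate carrier, stood at -0.33 ± 0.12, and Flrt2, whose protein binds FGF receptors, at 0.42 ± 0.24. The list as a whole summed to 557 to 622 CPM in Gli3R and 651 to 813 CPM in control libraries. Without Gpc3 it came to 268 ± 15.4 CPM in Gli3R and 277 ± 25.7 CPM in control libraries (SD, n = 3 each).

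The transducer list, mainly adaptors, Ras proteins and kinases between receptor and ERK but also ERK-activated kinases, gave small values on both sides of 0. Of 27 transducer genes, 25 were tested and 0 were called, with 0 at an unadjusted p under 0.05 (edgeR quasi-likelihood test), against 6.85% of all tested genes. Their median log2 fold change was 0.07 against -0.01 over all tested genes, and 17 lay above 0 and 8 below. The values ran from -0.20 for the receptor adaptor gene Frs2 to 0.54 ± 0.45 (SE) for the ERK-activated kinase gene Rps6ka3. Nras, a Ras gene, stood at 0.16 ± 0.08 (SE), higher in each Gli3R library than in each control library, and missed the threshold (edgeR quasi-likelihood, Benjamini-Hochberg adjusted p = 0.800). In this list the groups did not overlap for 2 genes on the higher side and 1 on the lower side. The same held for 5.62% and 6.33% of all tested genes.

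Of 16 other negative feedback genes, 12 were tested and 0 were called (edgeR quasi-likelihood test), with a median log2 fold change of 0.03. Without adjustment 1 had a p under 0.05, against 6.85% of all tested genes. The summed level was 108 to 127 CPM in Gli3R and 110 to 121 CPM in control libraries. The phosphatase gene Dusp2, whose product acts on ERK in the nucleus, had 16.5, 13.8 and 12.3 CPM in Gli3R replicates 1, 2 and 3, against 8.72, 7.12 and 10.8 CPM in control replicates 1, 2 and 3. Its groups did not overlap, and its log2 fold change was 0.69 ± 0.20 (SE), short of the threshold (edgeR quasi-likelihood, Benjamini-Hochberg adjusted p = 0.415). In this list the groups did not overlap for 2 genes on the higher side and 1 on the lower side. The same held for 5.62% and 6.33% of all tested genes. Dusp10 and Dusp16, phosphatases that act mainly on the stress kinases JNK and p38, stood at 0.53 ± 0.26 and -0.64 ± 0.37.

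Of 27 other ERK target genes, 21 were tested and 0 were called (edgeR quasi-likelihood test), with a median log2 fold change of -0.02. Without adjustment 3 had a p under 0.05 on each side, against 6.85% of all tested genes in either direction. The immediate-early gene Ier3 had 2.72, 4.87 and 5.06 CPM in Gli3R replicates 1, 2 and 3, against 1.30, 2.31 and 2.03 CPM in control replicates 1, 2 and 3. Srf, which encodes the transcription factor that drives many immediate-early genes, had 14.8, 15.9 and 15.5 CPM in Gli3R and 11.1, 8.75 and 11.4 CPM in control replicates 1, 2 and 3. Phlda1, a growth factor-induced gene, averaged 19.6 ± 4.97 CPM in Gli3R and 10.1 ± 0.26 CPM in control libraries (SD, n = 3 each). All 3 genes were higher in each Gli3R library than in each control library, and none passed (log2 fold change 1.08 ± 0.36, 0.57 ± 0.16 and 0.95 ± 0.20, SE; edgeR quasi-likelihood, Benjamini-Hochberg adjusted p = 0.498, 0.405 and 0.189). In this list the groups did not overlap for 5 genes on the higher side and 3 on the lower side. The same held for 5.62% and 6.33% of all tested genes. Of the 21, 8 had a log2 fold change above 0 and 13 below.

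**Figure D5:**
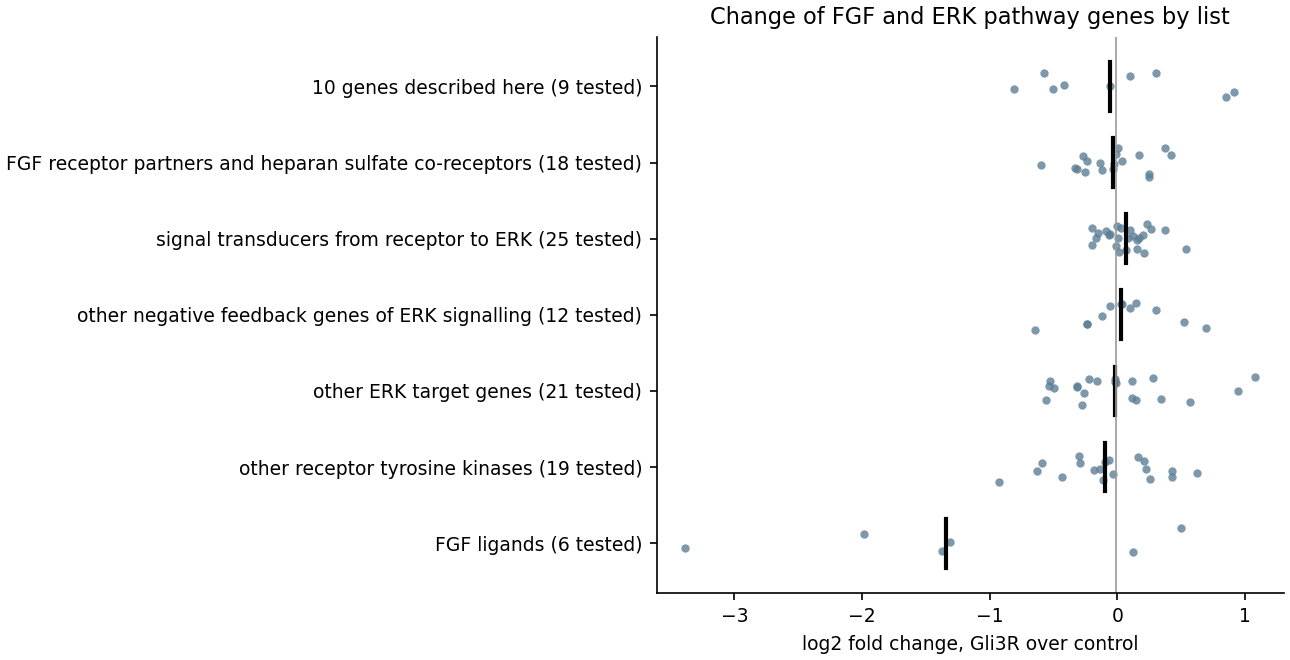
Log2 fold change of Gli3R over control (horizontal axis) of each tested gene (points) in the 10 genes described here and in 6 lists of pathway genes, with the median of each as a black bar and the median of all tested genes as a grey line. The medians lie between -0.10 and 0.07 except that of the 6 tested genes on the FGF ligand list, at -1.34.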

How the data were processed

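RNA-seq libraries were made from 3 Gli3R and 3 control pools of sorted cells with the SMARTer Ultra Low and Nextera XT kits, per the labels' protocols. The authors deposited raw counts of reads per Entrez gene; tools listed in the submitters' processing notes are TopHat2 2.0.14, featureCounts, Subread 1.4.6, FastQC and edgeR, with the build mm9 and no roles. For annotation, strand and multiply mapped reads, the settings were not given in the sources used here. Without strand, reads of Fgfr1, Fgfr3 and Spry1 cannot be told from those of genes that overlap their exons on the opposite strand in GENCODE M21 (GRCm38), nor those of Fgfr2 from an overlapping Ctbp2 transcript.

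The counts were filtered with filterByExpr (minimum count 10), scaled by TMM and tested with edgeR 4.0.16 (quasi-likelihood test, two-sided, Benjamini-Hochberg over all genes tested, threshold 0.05) in R 4.3.3, with no other term; the script was tested on simulated data. DESeq2 1.42.0 was an alternative. Intervals are 95% intervals from the same fit. Within-litter ratios used a pseudocount of 0.25 CPM. Levels per kilobase used the union of coding-transcript exons in GENCODE M21. One count stood for 0.0777 to 0.186 CPM, and floors of 3 counts cover counting error only. Of the Entrez IDs, 96.7% matched the RefSeq gene table, and 27 symbols turned into dates were restored by ID.

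The labels and the deposited table give each litter, so the replicate numbers pair the libraries. Libraries of 1 litter deviated from their group means with a correlation of 0.168 (litter 1), 0.188 (litter 2) and 0.0754 (litter 3), against -0.269 to 0.163 for libraries of different litters. Libraries differed by a chi-square per gene of 4.14 to 15.2, so none was a copy of another. Each p-value of the main fit measures the spread between these litter pools within a group. With litter as a block, the spread measured is that left after differences between litters are removed.

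The 10 genes, the pathway and marker lists and the tests were chosen with earlier results of these data known. Named are all 10 genes; from each pathway list every gene that passed and the 3 tested genes with the smallest p; and, of the ligands, those that passed. Of the genes this rule names, 2 are not reported here. Genes named as the extremes or the most abundant of a list were added after their values were seen. So were markers named as changed, as on the other side of 0, or as at or near 0.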

Additional observations from a re-analysis of the deposited data

How the results depend on the processing

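Over the alternatives, 0 of the 9 tested genes passed the threshold (105 values), and 2 changed sign. Without single libraries the log2 fold change of Dusp6 ran from -0.015 (without Gli3R replicate 2) to 0.23, and that of Fgfr1 from -0.14 to 0.057 (without control replicate 1). Counts of genes called over the whole table depended more on the setting. Against 3 higher and 13 lower, the replicate block (litter) gave 9 higher, library size alone gave 5 higher, at least 5 CPM in 3 libraries gave 1 higher, no low-count filter gave 49 higher and 59 lower, and DESeq2's Wald test gave 43 higher and 51 lower; the cause was not tested. Leaving out a library gave 0 to 2 higher and 0 to 16 lower, with none in either direction once Gli3R replicate 3 was left out (edgeR gave 659 under an unadjusted 0.05). The replicate block changed no call among the 9 genes. Without the filter on low counts Fgfr4 was tested too and missed the threshold (edgeR quasi-likelihood, Benjamini-Hochberg adjusted p = 0.883). The share of Fgfr3 among the receptors was higher in Gli3R by 5.14 to 7.88 points without single libraries and by 5.96 points with the longest transcript as length, a setting chosen after seeing the data. Depth limits Fgfr4, Etv4 and Spry4, the genes with the fewest reads.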

Other observations

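Receptor tyrosine kinases outside the FGF family, which can also feed ERK, were looked at as a list. Of 25 genes, 19 were tested and 0 were called (edgeR quasi-likelihood test), with a median log2 fold change of -0.10. Without adjustment 1 had a p under 0.05 on each side, against 6.85% of all tested genes in either direction. The summed level was 222 to 237 CPM in Gli3R and 211 to 247 CPM in control libraries. The hepatocyte growth factor receptor gene Met averaged 1.05 ± 0.40 CPM in Gli3R and 2.08 ± 0.37 CPM in control libraries, the VEGF receptor gene Kdr 35.2 ± 6.35 CPM in Gli3R and 26.0 ± 5.87 CPM in control libraries, and Ror2, a receptor for non-canonical WNT ligands, 4.12 ± 1.52 CPM in Gli3R and 6.09 ± 0.33 CPM in control libraries (SD, n = 3 each). Summed markers of 2 further cell types overlapped between the groups. Visceral and definitive endoderm markers summed to 493 to 634 CPM in Gli3R and 316 to 563 CPM in control libraries, and primitive erythroid markers to 221 to 736 CPM in Gli3R and 214 to 450 CPM in control libraries. In the endoderm sum, Apoe alone averaged 482 CPM in Gli3R and 383 CPM in control libraries. Afp and Ttr averaged 1.13 and 2.44 CPM in Gli3R, against 0.679 and 1.30 CPM in control libraries. Foxa2 had 0 reads in the Gli3R libraries, against 3, 11 and 5 reads in control replicates 1, 2 and 3. In the erythroid sum, Hbb-bh1 alone averaged 272 CPM in Gli3R and 251 CPM in control libraries. Of 8 erythroid markers tested, 0 were called (edgeR quasi-likelihood test), with 7 above 0 by log2 fold change and 1 below. Without adjustment 1 had a p under 0.05 (higher). The 16 mesoderm markers summed to 741 to 920 CPM in Gli3R and 655 to 776 CPM in control libraries. None of the 16 was called without the litter block (edgeR quasi-likelihood test). At an unadjusted p under 0.05, 3 were higher and 5 lower, against 6.85% of all tested genes in either direction. Msx1 rose with the litter block (Benjamini-Hochberg adjusted p = 0.0121 in edgeR).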
